A study of Mus musculus with 4 samples.

Results

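Ribosome production in mouse embryos around diapause and implantation was followed through 36 genes, chosen by name for their part in making ribosomal RNA and assembling the ribosomal subunits. The files hold 25437 genes, and all 36 were found in each of the 4 libraries. Cells came from whole wildtype embryos of the strain B6C3F1/J and were captured on the BD Rhapsody Express microwell system, with 1 library for each stage label. The EDG7.5 and EDG9.5 libraries and the Reactivated library were each made from about 200 to 250 pooled blastocysts flushed out of the uterus, and the E5.5 library from 50 pooled embryos dissected out of implantation sites. The label of the Reactivated library gives EDG9.5 with 30 h of E2, and the labels do not say how E2 was given. The way of collection changes together with the step to E5.5, so stage and collection cannot be told apart there. By label E5.5 is day 5.5, before days 7.5 and 9.5 of the EDG libraries, so E5.5 does not follow Reactivated in time. The order of libraries used here is therefore not an order of age. E4.5 embryos, also named in the series text, were not analysed here.

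Ribosomes are made in the nucleolus. RNA polymerase I copies the ribosomal DNA into a long precursor, small nucleolar ribonucleoproteins (snoRNPs) of the box C/D and box H/ACA classes modify that precursor, and assembly factors cut, fold and export it as the small (40S) and large (60S) subunits. Diapause is a reversible arrest of the blastocyst before implantation, known for low rates of growth and protein synthesis. The blastocyst holds the epiblast, which forms the body of the embryo, the primitive endoderm, which lines the yolk sac, and the trophoblast, which forms the placenta.

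EDG7.5 gave 9620232 molecule counts (UMIs) from 1726 cell barcodes, and EDG9.5 gave 10994918 from 2566. Reactivated gave 9270833 from 677 barcodes and E5.5 gave 87507141 from 9560. After filtering, 1658, 2451, 671 and 9263 cells were kept in the same order, with medians of 5104, 3817, 13155 and 8725 UMIs per cell. Pairs of libraries shared between 1 and 27 barcodes. Cells were clustered library by library without the 36 genes, and clusters were named from fixed marker lists, so the lineage names come from these lists and not from an annotation by the authors. In EDG7.5 the epiblast was led by Fgf4, Tdgf1 and Nanog, and the endoderm by Col4a1, Col4a2 and Sox17. The trophoblast of the EDG libraries was led by Gjb2 and S100a16, and none of the trophoblast list stood among the 10 leading genes of such a cluster, although 11 of its markers reached 20 CPM (UMIs of a gene scaled to a fixed total) in the largest one of EDG7.5. In Reactivated the named endoderm clusters were led by genes such as Ttr and Lhx1 or Cubn, Lrp2 and Hnf4a, while the endoderm cluster that shared Lama1, Lamb1 and Pth1r with the largest endoderm cluster of EDG7.5 was left out, since stroma markers also led it. The endoderm sums thus compare cells in unlike states, and state and stage cannot be told apart there. In E5.5 the largest trophoblast cluster, of 1244 cells, was led by Esrrb, which is on the epiblast list, and its trophoblast list stood only 0.65 log2 above the epiblast list. Clusters whose 10 leading genes held more markers of another list than of their own were left out of the lineages. This took 49.1% of the cells whose highest list was trophoblast in EDG7.5 and 48.4% of them in EDG9.5, 46.0% in the Reactivated library and 20.6% in E5.5, and 33.0% of such endoderm cells in Reactivated. The epiblast then held 489, 584, 205 and 2641 cells in EDG7.5, EDG9.5, Reactivated, then E5.5, the endoderm 581, 867, 203 and 2990, and the trophoblast 299, 490, 88 and 2884.

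UMIs were summed by lineage within each library and divided by all UMIs of those cells, as CPM, which is a share of the RNA counted and not an amount per cell. Every one of the 36 genes had at least 13 UMIs in each of the 12 sums. With 1 library per stage no difference has a replicate check and no test was made. Intervals of levels and ratios are exact 95% intervals that cover counting error only, and the spread between embryos or library preparations is unknown. A difference between libraries is given as a log2 ratio after adding 10 CPM to both sides, which pulls low genes towards 0. A gene counts as higher or lower past a 2-fold difference on that scale, and the share of all measured genes past the same limit is given where the 36 are first counted in a comparison.

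The 36 genes together took a larger share of the RNA in Reactivated and E5.5 than in both EDG libraries, by far the most in the trophoblast and least in the endoderm. In the trophoblast their sum stood at 4711, 5461.5, 13692 and 19812 CPM in EDG7.5, EDG9.5, Reactivated, then E5.5. In the epiblast it stood at 9689, 10697, 18085 and 20740 CPM in the same order, and in the endoderm at 10281, 10160, 12238 and 11828 CPM. Reactivated over EDG9.5, the sum was 2.51 times as high in the trophoblast (95% interval 2.45 to 2.57), 1.69 times in the epiblast (1.67 to 1.72) and 1.20 times in the endoderm (1.19 to 1.22). E5.5 over Reactivated, it was 1.45 times as high in the trophoblast, 1.15 times in the epiblast and 0.967 times in the endoderm, the last with an interval of 0.956 to 0.977. The Reactivated trophoblast sum joins the unlike clusters 6 and 7, at 16310 and 7283 CPM, described further on. Cluster 7 was led by genes that also led the EDG trophoblast, so state and stage cannot be told apart in the trophoblast either. All these ratios of sums depend on the scaling. With TMM scaling and with DESeq2 size factors, Reactivated over EDG9.5 was 2.588 and 2.593 in the trophoblast, 2.15 and 2.10 in the epiblast, and 1.56 and 1.44 in the endoderm. E5.5 over Reactivated was then 1.335 and 1.18 in the trophoblast, 1.11 and 1.06 in the epiblast, and 0.969 and 0.931 in the endoderm. Mitochondrially encoded UMIs made up 10.4%, 8.84%, 6.33% and 4.24% of the trophoblast in EDG7.5, EDG9.5, Reactivated, then E5.5, 9.78%, 7.98%, 5.94% and 6.70% of the endoderm, and 5.86%, 4.97%, 6.19% and 5.54% of the epiblast, and their part in the result was not tested. The steps from EDG7.5 to EDG9.5 were smaller, at 1.16, 1.10 and 0.988 times in trophoblast, epiblast and endoderm.

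**Figure D1:**
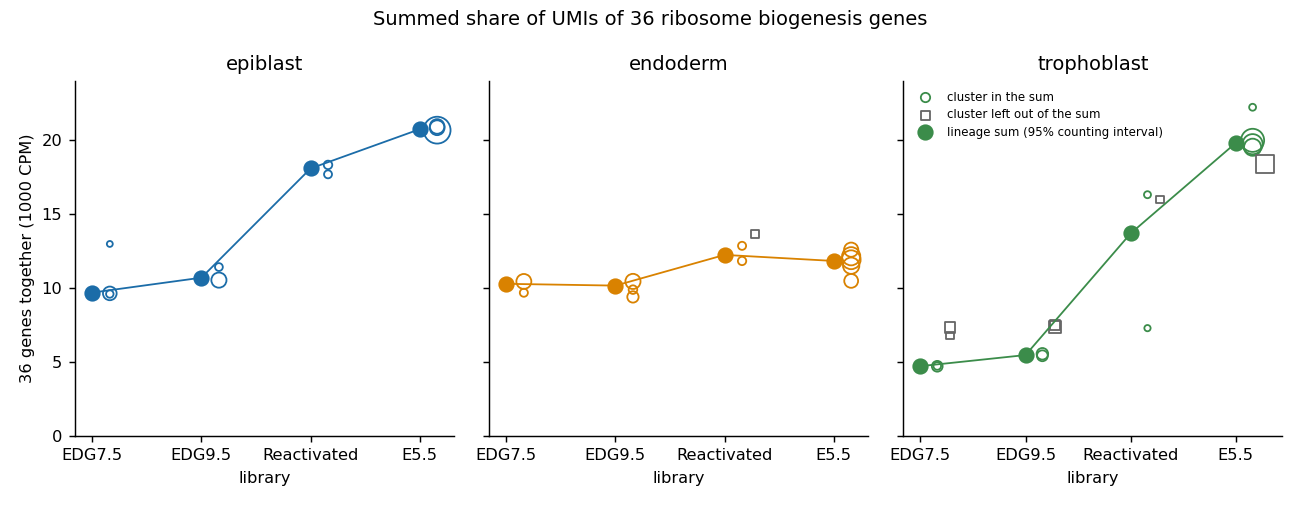
Summed CPM of the 36 genes (y axis, in 1000 CPM) by library (x axis) in the 3 lineages; filled points are lineage sums with 95% counting intervals, open circles the clusters in them with area by cell number, and squares the clusters left out. The trophoblast goes over the 4 libraries from 4711 to 19812 CPM and the epiblast from 9689 to 20740 CPM, while all 4 endoderm sums lie between 10160 and 12238 CPM.

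Npm1 and Ncl held 35.8% and 17.3% of all UMIs of the 36 genes, so the sums lean on them. Without both genes the Reactivated sum was 2.26 times that of EDG9.5 in the trophoblast, 1.39 times in the epiblast and 1.10 times in the endoderm. Per cell, member UMIs were 6.98, 4.90 and 4.45 times as many in Reactivated as in EDG9.5 in trophoblast, epiblast and endoderm, while all UMIs per cell were 2.78, 2.90 and 3.70 times as many. More RNA in a cell and deeper sequencing of it cannot be told apart here. With each cell thinned to 1000 UMIs, the median trophoblast cell held 4 member UMIs in EDG7.5 and 5 in EDG9.5, then 14.5 in the Reactivated library and 20 in E5.5, against unthinned medians of 4.44, 5.29, 14.0 and 19.8 per 1000 UMIs. The thinned medians in the same order were 9, 10, 18 and 21 in the epiblast and 10, 10, 12 and 11 in the endoderm, against unthinned 9.40, 10.3, 17.7 and 20.7 in the epiblast and 10.1, 9.76, 12.1 and 11.8 in the endoderm. Thinning leaves the expected share of a cell unchanged, so these medians describe the spread over cells and are no check on depth. With the left-out clusters kept, the trophoblast sums were 5780, 6423, 14662 and 19473 CPM, and Reactivated stood at 2.28 times EDG9.5.

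Promoters of the genes were compared for a pair of short motifs because many of the genes were higher together in the Reactivated trophoblast. RefSeq promoter windows of GRCm38.p6, running from 250 bases before to 50 bases after a start site, matched 30 of the 36 genes with 33 windows. CACGTG, the E-box that MYC with its partner MAX is known to bind, reads the same on both strands and stood in 5 of the 33 windows (15.2%), those of Nop2, Pes1, Mybbp1a, Utp20 and Wdr43. It stood in 7.15% of all 32851 windows. CCGGAAG, a core that ETS factors are known to bind, was searched on both strands and stood in 8 of the 33 (24.2%) and in 8.86% of all windows. The motifs overlapped in none of the 278 windows that held both. Of the 4 windows printed here, all on the plus strand, Nop2 holds both motifs, Pes1 the first, Nhp2 the second and Dkc1 neither, and in the epiblast Nhp2 had the highest and Dkc1 the lowest log2 ratio of Reactivated over EDG9.5. The windows of Nhp2 and Dkc1 were picked by these ratios. Heatr1 also holds CCGGAAG and was 0.853 times as high in Reactivated as in EDG9.5 epiblast (0.592 to 1.23), and Nop10 holds neither motif and was 3.74 times as high. In the trophoblast Nop10 had the highest log2 ratio of the 36, at 2.06, and Dkc1 the lowest, at −1.55. Capitals mark the motifs, and a match describes letters only.
Nop2, chr6:125131633-125131932: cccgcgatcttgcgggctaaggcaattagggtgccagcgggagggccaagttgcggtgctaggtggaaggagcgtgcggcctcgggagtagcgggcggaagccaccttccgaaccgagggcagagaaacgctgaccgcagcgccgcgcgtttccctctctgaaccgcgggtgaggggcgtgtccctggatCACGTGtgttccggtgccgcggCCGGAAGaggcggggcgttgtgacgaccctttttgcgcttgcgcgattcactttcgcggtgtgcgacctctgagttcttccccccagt
Pes1, chr11:3963725-3964024: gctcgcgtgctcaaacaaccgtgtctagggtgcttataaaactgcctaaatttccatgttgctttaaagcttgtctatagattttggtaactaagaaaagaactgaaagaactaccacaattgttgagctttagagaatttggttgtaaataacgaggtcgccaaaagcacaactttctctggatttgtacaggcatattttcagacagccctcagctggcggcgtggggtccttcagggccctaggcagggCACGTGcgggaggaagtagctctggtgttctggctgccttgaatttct
Nhp2, chr11:51619523-51619822: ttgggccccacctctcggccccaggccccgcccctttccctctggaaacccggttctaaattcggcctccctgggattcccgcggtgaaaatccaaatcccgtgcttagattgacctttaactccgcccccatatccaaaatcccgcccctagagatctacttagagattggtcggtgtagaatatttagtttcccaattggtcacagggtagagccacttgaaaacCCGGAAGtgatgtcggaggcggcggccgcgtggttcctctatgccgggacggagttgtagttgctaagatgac
Dkc1, chrX:75095604-75095903: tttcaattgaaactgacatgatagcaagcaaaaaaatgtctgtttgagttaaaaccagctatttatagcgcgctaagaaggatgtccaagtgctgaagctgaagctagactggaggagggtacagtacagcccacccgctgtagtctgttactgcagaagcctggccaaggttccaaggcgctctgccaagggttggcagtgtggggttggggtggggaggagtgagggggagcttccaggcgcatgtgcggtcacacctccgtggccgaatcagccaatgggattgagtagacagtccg

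Between EDG7.5 and EDG9.5 none of the 36 genes differed 2-fold in any lineage. Over all measured genes the shares past 2-fold were also small, at 0.0483% higher and 0.0403% lower in the epiblast, 0.16% and 0.0559% in the endoderm, and 0.0965% and 0.203% in the trophoblast. The median log2 ratio of the 36 was −0.05 in the epiblast, −0.19 in the endoderm and −0.01 in the trophoblast, beside medians over all genes of −0.02, −0.03 and −0.00. In the endoderm 32 of the 36 were below 0, and the share of all genes below 0 was not counted. For 15 of the 36 there the counting interval lay below a ratio of 1 (13.2% of all measured genes), with 2 above (9.43%). In the epiblast the interval lay above 1 for 4 genes (8.4%) and below for 5 (11.1%), and in the trophoblast for 3 (9.65%) and 1 (10.7%). These intervals narrow with a gene's UMIs, so such shares depend on abundance.

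The step from EDG9.5 to Reactivated separated the lineages. In the trophoblast 26 of the 36 genes were at least 2-fold higher in Reactivated (13.1% of all measured genes were) and 1, Dkc1, was lower (14.8%). With the left-out trophoblast clusters kept 25 were higher (9.85%) and 1 lower (11.4%), with a median log2 ratio of 1.15. In the epiblast 9 were higher (7.27%) and none was lower (16.5%). In the endoderm 4 were higher (6.1%) and 4 lower (11.4%), and with the left-out cluster kept 4 were higher (5.63%) and 3 lower (10.6%). The median log2 ratio of the 36 was 1.37 in the trophoblast, 0.54 in the epiblast and −0.03 in the endoderm, beside −0.09, −0.23 and −0.18 over all genes. Of the 36 genes, 35 in the trophoblast and 31 in the epiblast were above 0, and the share of all genes above 0 was not counted. With TMM scaling, which brings the median over all genes to −0.04 in the epiblast and 0.01 in the endoderm, the epiblast had 16 genes higher (11.4% of all genes under that scaling) and none lower (10.2%), and the endoderm 5 higher (11.1%) and none lower (6.99%) with a median of 0.33. With DESeq2 size factors the endoderm had 5 higher (9.27%) and 1 lower (7.92%). The sign of the endoderm median therefore depends on the scaling, while the trophoblast median was 1.42 with TMM. It also depends on the endoderm cells summed, at 0.06 with the left-out cluster kept and −0.05 at a Leiden clustering resolution of 0.5.

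**Figure D2:**
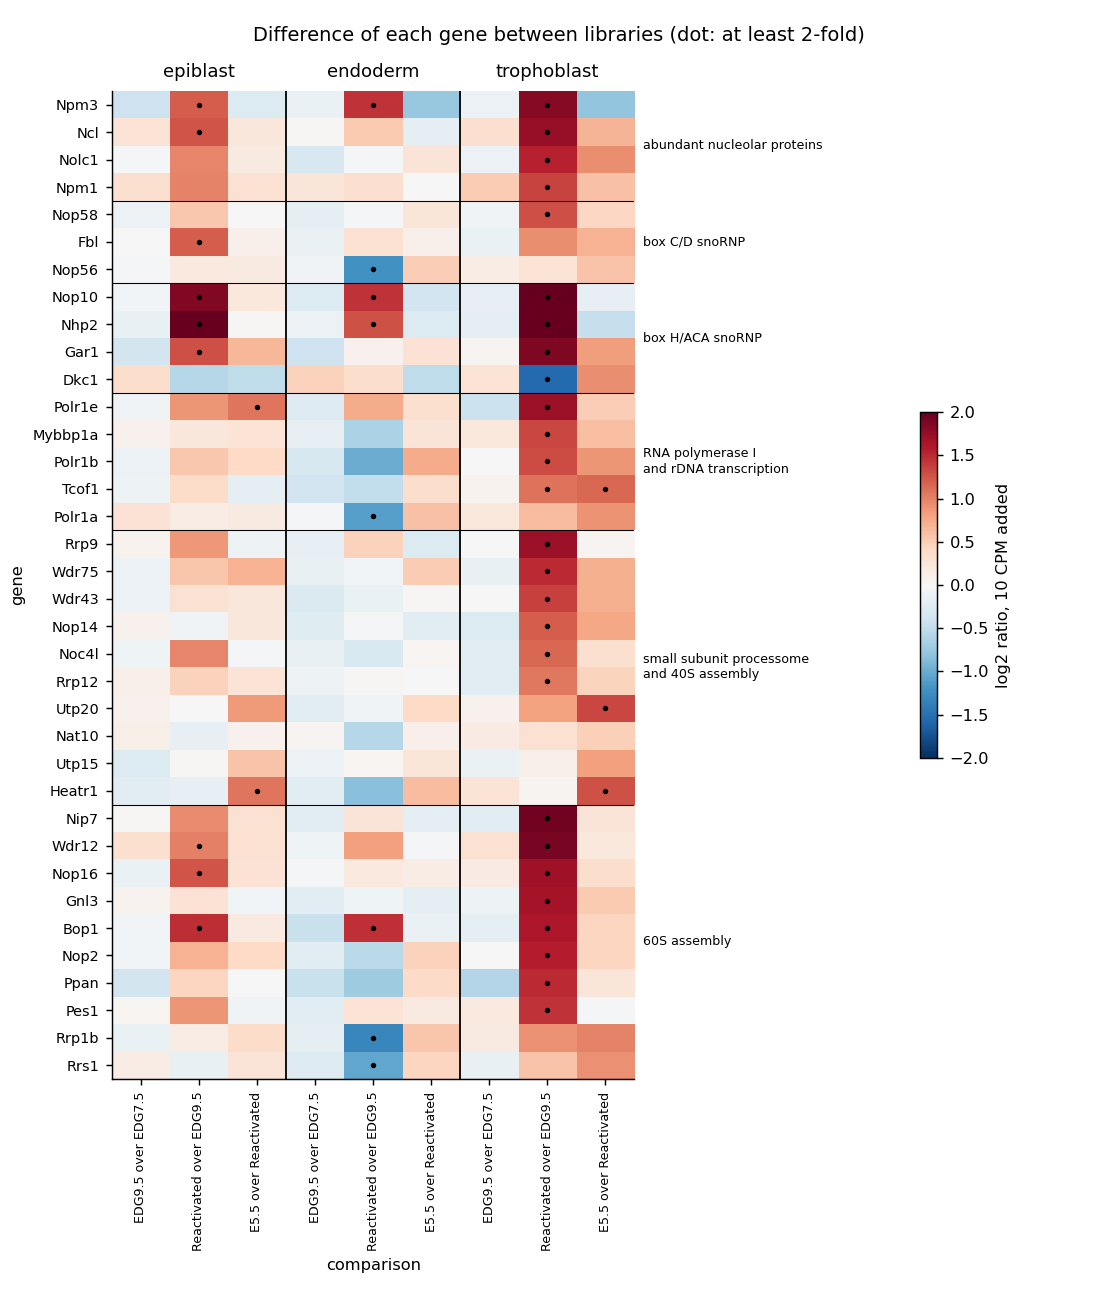
Log2 ratio of each of the 36 genes (rows, grouped by role and ordered by the trophoblast difference of Reactivated over EDG9.5) in 3 comparisons within 3 lineages (columns); red is higher and blue lower in the library named first, and a dot marks at least 2-fold. The Reactivated over EDG9.5 column holds 26 dots for higher genes in the trophoblast and 9 in the epiblast, while the endoderm holds 4 red and 4 blue.

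Between Reactivated and E5.5 the differences were smaller. In the trophoblast 3 genes were at least 2-fold higher in E5.5 (Tcof1, Utp20 and Heatr1; 7.06% of all genes) and none lower (4.16%). In the epiblast 2 were higher (Polr1e and Heatr1; 3.1%) and none lower (4.47%), and in the endoderm none was higher (3.06%) or lower (2.28%). With each cell thinned to 1000 UMIs the trophoblast count was 13 rather than 3, and 22.2% of all genes were then past 2-fold higher with a median of 0.43. The medians were 0.58 in the trophoblast, 0.23 in the epiblast and 0.16 in the endoderm, beside 0.11, 0.07 and 0.05 over all genes. Reactivated and E5.5 both stood above both EDG libraries for 34 of the 36 genes in the trophoblast (31.6% of all genes), 30 in the epiblast (24.1%) and 12 in the endoderm (24.1%). Both stood below both EDG libraries for 1 gene in the trophoblast (27.9%), 1 in the epiblast (40.2%) and 15 in the endoderm (41.6%). That 1 gene was Dkc1 in both lineages. The other exceptions were Utp15 in the trophoblast, and Utp15, Heatr1, Nop14, Nat10 and Rrs1 in the epiblast, whose libraries overlapped.

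Among the abundant nucleolar proteins, Npm1 encodes nucleophosmin, a histone and assembly chaperone that fills the outer nucleolus. It stood at 1316, 1886, 4853 and 7293 CPM in EDG7.5, EDG9.5, Reactivated, then E5.5 trophoblast, and at 2498, 3121, 6245 and 7746 CPM in the epiblast. In the endoderm it stood at 2801, 3313, 4146 and 4174 CPM. Npm1 was thus lowest in EDG7.5 and highest in E5.5 in every lineage, although E5.5 and Reactivated endoderm differed by less than counting error, with Reactivated over EDG9.5 at 2.57 times in the trophoblast (2.47 to 2.68), 2.0 times in the epiblast and 1.25 times in the endoderm. With 10 CPM added, the epiblast difference fell just short of 2-fold. Npm1 has processed copies in the mouse genome, and how reads shared with them were counted is not given in the sources used here.

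Ncl encodes nucleolin, which binds the ribosomal RNA precursor and ribosomal DNA chromatin. Its level was 547, 685, 2314 and 3726 CPM in EDG7.5, EDG9.5, Reactivated, then E5.5 trophoblast, 1043, 1267, 3055 and 3588 CPM in the epiblast, and 1541, 1570, 2266 and 1994 CPM in the endoderm. Reactivated over EDG9.5, Ncl was 3.38 times as high in the trophoblast (3.18 to 3.6), 2.41 times in the epiblast and 1.44 times in the endoderm. Npm3, a nucleoplasmin family protein that binds nucleophosmin, was the 1 gene of this group past 2-fold in all 3 lineages, with Reactivated over EDG9.5 at 3.73 times in the trophoblast, 2.41 times in the epiblast and 2.87 times in the endoderm. Its levels in EDG7.5, EDG9.5, Reactivated, then E5.5 were 132, 120.2, 448 and 255 CPM in the trophoblast, 192, 142, 342 and 281 CPM in the epiblast, and 131, 118, 339.9 and 196 CPM in the endoderm. Npm3 was lower in E5.5 than in Reactivated in each lineage, at log2 ratios of −0.79, −0.27 and −0.76. Nolc1, a chaperone of snoRNPs, had log2 ratios of Reactivated over EDG9.5 of 1.56 in the trophoblast, 0.98 in the epiblast and −0.04 in the endoderm, the last positive with TMM scaling.

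Box C/D snoRNPs guide methylation of the ribosomal RNA sugar. Nop58, one of their scaffold proteins, stood at 304, 290.2, 725 and 966 CPM in EDG7.5, EDG9.5, Reactivated, then E5.5 trophoblast, and it was 2.5 times as high in Reactivated as in EDG9.5 (2.25 to 2.77). In the epiblast it stood at 770.3, 708, 1035 and 1042 CPM, and in the endoderm at 659, 577, 562 and 669 CPM. Nop56, the paired scaffold protein, went another way. Its levels in the endoderm were 269, 255, 105 and 151 CPM in EDG7.5, EDG9.5, Reactivated, then E5.5, so both EDG libraries lay above both others, and Reactivated was 0.411 times EDG9.5 (0.362 to 0.466). In the trophoblast Nop56 stood at 141, 157, 191 and 288 CPM, and in the epiblast at 226, 219, 253 and 288 CPM. The endoderm log2 ratio of Nop56 was −1.21, or −0.85 with TMM and −0.96 with DESeq2 scaling. Fbl, the methyltransferase of these particles, had few UMIs, between 26 and 145 outside E5.5, and was 3.03 times as high in Reactivated as in EDG9.5 epiblast (2.17 to 4.31) and 2.64 times in the trophoblast (1.57 to 4.48).

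Box H/ACA snoRNPs convert uridines of the ribosomal RNA to pseudouridine, and their proteins are shared with telomerase. The 3 partner proteins Nhp2, Nop10 and Gar1 and the catalytic subunit Dkc1 moved apart. Nhp2 stood at 141, 122, 521 and 376 CPM in EDG7.5, EDG9.5, Reactivated, then E5.5 trophoblast, and at 104, 92.8, 423 and 429 CPM in the epiblast. Nop10 stood at 222, 197, 851 and 762 CPM in the trophoblast and at 221, 212, 791 and 913 CPM in the epiblast. In the endoderm Nhp2 stood at 108, 99.1, 253 and 208 CPM and Nop10 at 348, 286, 797 and 610.3 CPM. Both genes were past 2-fold in all 3 lineages, Nhp2 at 4.29, 4.56 and 2.56 times and Nop10 at 4.33, 3.74 and 2.79 times in Reactivated over EDG9.5 trophoblast, epiblast and endoderm. Gar1 was 4.49 times as high in the trophoblast (3.39 to 6.01), at 142 CPM in Reactivated against 31.7 in EDG9.5, 2.66 times in the epiblast and 1.07 times in the endoderm (0.904 to 1.27).

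Dkc1 was the exception of the whole set. It stood at 677, 823, 275 and 534 CPM in EDG7.5, EDG9.5, Reactivated, then E5.5 trophoblast, so both EDG libraries lay above both others, and Reactivated was 0.334 times EDG9.5 (0.296 to 0.377). In the epiblast it stood at 1212, 1552, 1039 and 729.5 CPM, again with both EDG libraries above, and Reactivated was 0.67 times EDG9.5 (0.637 to 0.704). In the endoderm it stood at 407, 565, 726 and 506 CPM and was 1.29 times as high in Reactivated as in EDG9.5 (1.21 to 1.37). Dkc1 also had the highest log2 ratio of the 36 from EDG7.5 to EDG9.5 in the epiblast (0.35) and in the endoderm (0.46). The trophoblast difference depends on the clusters: its log2 ratio of −1.55 was −0.87 and −0.93 at Leiden resolutions of 0.5 and 2, and −1.14 with the left-out clusters kept. Within the Reactivated trophoblast Dkc1 stood at 352 CPM in cluster 6 and 86.8 CPM in cluster 7, described further on, and at 574 CPM in cluster 5, which was left out. The last exon of the gene overlaps Mpp1 on the opposite strand by 45 bases in GENCODE M21. Of the 36 genes, 18 share exon bases with another gene there and 15 with one on the opposite strand, and without the strand setting, which the sources used here do not give, reads of such pairs cannot be told apart.

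**Figure D3:**
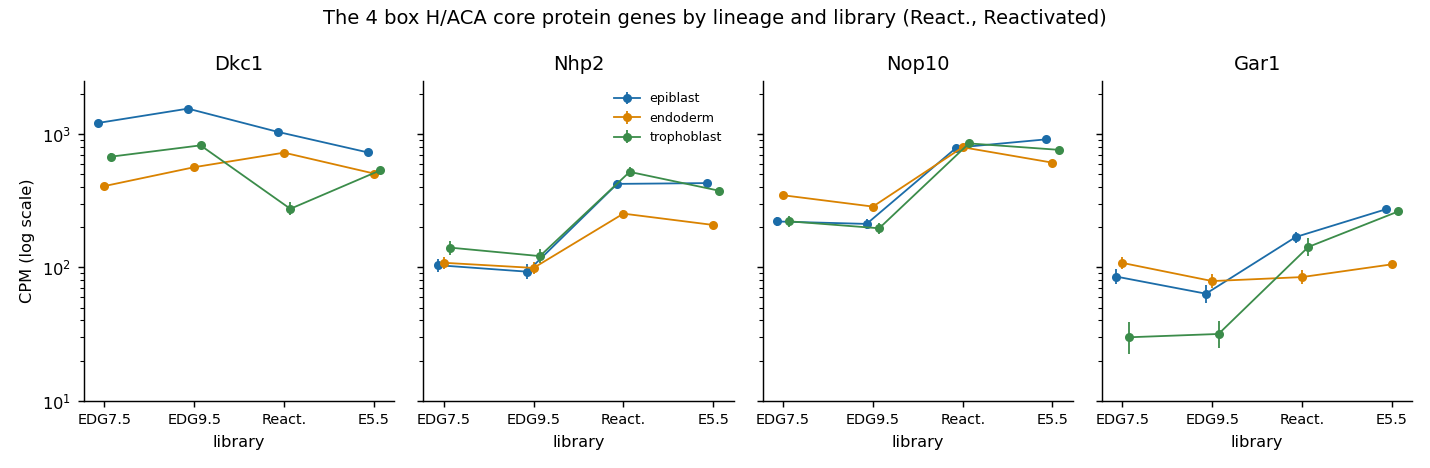
CPM (y axis, log scale) of the 4 box H/ACA core protein genes by library (x axis) and lineage, with 95% counting intervals, often smaller than the points. In the trophoblast Dkc1 dips to 275 CPM in Reactivated, where Nhp2, Nop10 and Gar1 stand at 521, 851 and 142 CPM, above both EDG libraries.

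Of the genes of ribosomal DNA transcription, Tcof1 encodes treacle, which ties RNA polymerase I to the ribosomal DNA. It stood at 68.1, 72.4, 165 and 377 CPM in EDG7.5, EDG9.5, Reactivated, then E5.5 trophoblast, at 319, 298, 386 and 340.1 CPM in the epiblast, and at 219, 165, 114 and 148 CPM in the endoderm. Tcof1 was thus past 2-fold higher in the trophoblast in Reactivated over EDG9.5 and in E5.5 over Reactivated. Its lowest endoderm level was in Reactivated. Mybbp1a, a nucleolar regulator found with RNA polymerase I, stood at 62.6, 73.7, 200.4 and 308 CPM in the trophoblast, 207, 222, 262 and 318 CPM in the epiblast, and 281, 250.4, 158 and 191 CPM in the endoderm. The polymerase subunits Polr1a, Polr1b and Polr1e were low, at 5.64 to 69.4 CPM, and rest on 13 to 182 UMIs outside E5.5. Polr1b, part of the catalytic core, stood at 38.4, 28.9, 9.43 and 22.6 CPM in EDG7.5, EDG9.5, Reactivated, then E5.5 endoderm, at 29.0, 25.8, 41.8 and 58.4 CPM in the epiblast, and at 7.20, 7.37, 33.0 and 69.4 CPM in the trophoblast. The Polr1b ratio of Reactivated over EDG9.5 was 0.327 in the endoderm (0.21 to 0.494) and 4.47 in the trophoblast (2.46 to 8.45). The Polr1a subunit, the other part of the catalytic core, was 0.355 times as high in the endoderm (0.259 to 0.482) and 2.0 times in the trophoblast (1.12 to 3.59). Polr1e, another subunit, was 2.46 times as high in the endoderm, 2.90 times in the epiblast and 7.39 times in the trophoblast, the last on 48 UMIs in Reactivated and 13 in EDG9.5 with an interval of 3.94 to 14.9. The sum of the 5 genes was 462 CPM in Reactivated trophoblast, against 170.5 CPM in EDG9.5, and 319 CPM in Reactivated endoderm, against 502 CPM in EDG9.5.

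The 10 genes of the small subunit came next. Wdr43 and Wdr75 belong with Utp15 and Heatr1 to the complex that first binds the growing precursor. Wdr43 stood at 106, 106, 290 and 479 CPM in EDG7.5, EDG9.5, Reactivated, then E5.5 trophoblast, at 368, 337, 419 and 494 CPM in the epiblast, and at 343, 279.8, 254 and 259 CPM in the endoderm. Wdr75 stood at 53.2, 46.9, 149 and 249.7 CPM in the trophoblast, 118, 108, 162 and 269 CPM in the epiblast, and 108, 96.4, 92.1 and 134 CPM in the endoderm. Of the 10, Wdr43, Wdr75, Rrp9, Nop14, Noc4l and Rrp12 were past 2-fold higher in Reactivated than in EDG9.5 trophoblast, at 2.74 to 4.06 times, the highest being Rrp9, a snoRNP protein of the first cuts. Utp20, Nat10, Utp15 and Heatr1 were not, at log2 ratios of 0.81, 0.30, 0.11 and 0.06. Nat10 acetylates ribosomal RNA, and Nop14 with Noc4l forms a pair that in budding yeast helps to export the small subunit, as Rrp12 does.

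Utp20 and Heatr1, large scaffold proteins of the small subunit processome, passed 2-fold in the trophoblast at the step to E5.5. Utp20 stood at 18.3, 19.95, 42.5 and 123 CPM in EDG7.5, EDG9.5, Reactivated, then E5.5 trophoblast, and at 61.9, 66.7, 67.1 and 128 CPM in the epiblast. Heatr1 stood at 8.31, 12.2, 13.0 and 45.4 CPM in the trophoblast and at 33.2, 27.0, 23.0 and 59.7 CPM in the epiblast. In the endoderm Utp20 stood at 67.5, 56.6, 53.5 and 74.0 CPM and Heatr1 at 31.6, 25.9, 10.1 and 20.7 CPM. E5.5 over Reactivated, the Utp20 ratio was 2.89 in the trophoblast (2.18 to 3.92) and the Heatr1 ratio was 3.49 (2.10 to 6.25), on 15 Heatr1 UMIs in Reactivated. In the epiblast the ratios were 1.91 and 2.59. No gene of the 10 passed 2-fold in the epiblast or endoderm at the step to Reactivated.

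Gnl3, the first of the 10 genes of the large subunit, encodes nucleostemin, a GTPase of the nucleolus. It stood at 179, 167, 547.5 and 793 CPM in EDG7.5, EDG9.5, Reactivated, then E5.5 trophoblast, at 665, 703, 858 and 826 CPM in the epiblast, and at 776, 671, 631 and 549 CPM in the endoderm. Nip7, which joins the early large subunit, stood at 63.1, 52.9, 229.9 and 276 CPM in the trophoblast, 96.2, 98.4, 199 and 248 CPM in the epiblast, and 171, 146, 176 and 154 CPM in the endoderm. Both genes kept the endoderm within a narrow band while the trophoblast spread widely. Bop1, Pes1 and Wdr12 form the PeBoW complex of precursor processing. Bop1 was past 2-fold in all 3 lineages, and had the highest endoderm log2 ratio of the 36, at 1.46. Its levels in EDG7.5, EDG9.5, Reactivated, then E5.5 were 40.4, 33.8, 125 and 171 CPM in the trophoblast, 55.3, 52.8, 165 and 188 CPM in the epiblast, and 46.6, 31.6, 105 and 94.3 CPM in the endoderm. Wdr12 was past it in trophoblast and epiblast, at 4.48 and 2.19 times, and Pes1 in the trophoblast alone, at 3.29 times.

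Among the rest of the large subunit genes, Nop2, which methylates ribosomal RNA, Nop16 and Ppan were past 2-fold higher in Reactivated trophoblast, at 3.52, 4.19 and 4.06 times EDG9.5, and Nop16 in the epiblast too. Ppan had the lowest log2 ratio of EDG9.5 over EDG7.5 in the trophoblast, at −0.59 on 34 UMIs in EDG9.5 and 49 in EDG7.5. Its levels there were 27.1, 14.8, 59.9 and 72.7 CPM in EDG7.5, EDG9.5, Reactivated, then E5.5, beside 65.4, 48.4, 69.1 and 69.8 CPM in the epiblast and 89.0, 62.9, 34.6 and 48.3 CPM in the endoderm. Rrp1b, a nucleolar protein, and Rrs1, which in budding yeast brings the 5S particle to the large subunit, did not pass 2-fold in the trophoblast, at log2 ratios of 0.92 and 0.57. In the endoderm both were lower. Rrp1b stood at 114, 99.4, 34.3 and 54.98 CPM in EDG7.5, EDG9.5, Reactivated, then E5.5 endoderm, at 142, 129, 144 and 189 CPM in the epiblast and at 21.6, 25.6, 57.3 and 124 CPM in the trophoblast. Rrs1 stood at 192, 159, 72.0 and 100.5 CPM in the endoderm. The log2 ratio of Reactivated over EDG9.5 was −1.31 for Rrp1b and −1.05 for Rrs1 in the endoderm, and with TMM scaling −0.99 and −0.70.

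Within a library the lineages changed places. In EDG7.5 and in EDG9.5 the trophoblast had the lowest level of the 3 lineages for 31 of the 36 genes, where it was lowest for 58.6% and 56.9% of all genes. With the left-out clusters kept, its sums of the 36 were 5780 and 6423 CPM rather than 4711 and 5461.5 CPM. The order of the lineages was not counted again with them. In Reactivated the endoderm was lowest for 27 of the 36 (27.1% of all genes), and in E5.5 for 36 of 36 (41.1%). The epiblast was highest for 9 of the 36 in EDG7.5 (42.1%) and 16 in EDG9.5 (42.7%), for 26 in the Reactivated library (39.4%) and for 23 in E5.5 (41.0%). Endoderm over trophoblast, 23 of the 36 were at least 2-fold higher in EDG7.5 (16.1% of all genes) and none was lower (7.14%), and 18 were higher in EDG9.5 (13.6%) and none lower (6.55%). In Reactivated 1 was higher (12.8%) and 2 were lower (6.87%), and in E5.5 none was higher (7.13%) and 5 were lower (3.6%). The endoderm thus stood above the trophoblast in both EDG libraries and below it in E5.5. Epiblast over trophoblast, 17 were higher in EDG7.5 (19.7%) and 15 in EDG9.5 (18.6%), while 3 were higher in the Reactivated library (14.8%) and none in E5.5 (4.54%). None was lower in any library, beside 7.98% of all genes in EDG7.5 and 8.13% in EDG9.5, with 9.93% in the Reactivated library and 4.23% in E5.5. The median log2 ratio of epiblast over trophoblast was 0.97, 0.89, 0.38 and 0.05 in EDG7.5, EDG9.5, Reactivated, then E5.5, beside 0.35, 0.32, 0.16 and 0.02 over all genes. Epiblast over endoderm, Dkc1 was the 1 gene at least 2-fold higher in EDG7.5 (6.93% of all genes) and in EDG9.5 (7.19%), at log2 ratios of 1.55 and 1.44. In E5.5 the epiblast stood above the endoderm for 36 of 36, and the share of all genes above 0 was not counted. Of the 36, 6 were at least 2-fold higher there (4.98%) and none lower (8.32%), while none was lower in EDG7.5 either (5.72%). The E5.5 median of epiblast over endoderm was 0.714, beside 0.035 over all genes.

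The Reactivated trophoblast held 2 unlike clusters. The first, cluster 6 with 56 cells, was led by Hand1, Ascl2, Elf5, Tfap2c and Plac1, and the second, cluster 7 with 32 cells, by genes that also led the EDG trophoblast, such as BC051665, BC053393 and Gm4926. The 36 genes summed to 16310 CPM in cluster 6 and 7283 CPM in cluster 7, both above the named trophoblast clusters of EDG7.5 (4703 and 4723 CPM) and EDG9.5 (5413 and 5547 CPM). Cluster 6 was above cluster 7 for 36 of 36 genes and at least 2-fold for 19 of them, beside 12% of 7718 genes measured, with a median log2 ratio of 1.02 against 0.09 over all genes. For Polr1b, Utp15, Utp20, Heatr1, Rrp12, Pes1, Rrs1 and Rrp1b the counting interval of the ratio held 1, and cluster 7 had 1 UMI of Heatr1. The share of all genes above 0 was not counted. The largest differences were those of Npm3, Nip7 and Nop10, at 582, 297 and 1091 CPM in cluster 6 against 119.7, 65.8 and 263 CPM in cluster 7. Genes of the G2 and M phases summed to 3897 CPM in cluster 6 and 835 CPM in cluster 7, and their part in the difference was not tested. These are cells of 1 library, and the clusters, though made without the 36 genes, were drawn from the same cells.

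**Figure D4:**
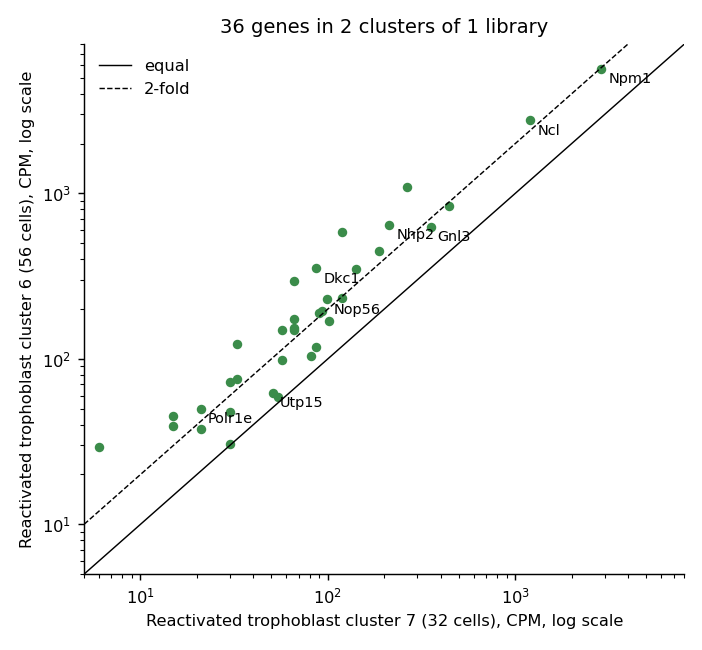
CPM of the 36 genes in cluster 6 (y axis, 56 cells, log scale) and cluster 7 (x axis, 32 cells, log scale) of the Reactivated trophoblast; each point is a gene, the solid line marks equal levels and the dashed line 2-fold. All 36 points lie above the solid line and 19 differ at least 2-fold after adding 10 CPM, Npm1 and Ncl standing at 5658 and 2767 CPM in cluster 6.

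Reactivated over EDG9.5, 25 of 27 measured genes of the G2 and M phases were at least 2-fold higher in the trophoblast, 14 of 28 in the epiblast and 17 of 28 in the endoderm, and none was lower. Of the S phase genes 14 of 18, 8 of 19 and 4 of 19 were higher in the same order and none was lower. The G2 and M genes summed to 188, 204, 3009 and 5309 CPM in EDG7.5, EDG9.5, Reactivated, then E5.5 trophoblast, to 2765, 2276, 5771 and 5233 CPM in the epiblast, and to 2593, 1533, 4403 and 4604 CPM in the endoderm. Within EDG7.5 the dividing cluster of endoderm, at 10450 CPM of G2 and M genes, held 9678 CPM of the 36 genes, and the other endoderm cluster, at 505 CPM, held 10441 CPM. In EDG9.5 the dividing cluster of epiblast, at 8830 CPM of G2 and M genes, held 11416 CPM of the 36 genes, and the largest epiblast cluster, at 771 CPM, held 10532 CPM. Clusters with almost no mitochondrially encoded UMIs had the highest member sums of their lineage and library: 12979 CPM in 22 epiblast cells of EDG7.5 with 0.27% and 22226 CPM in 53 trophoblast cells of E5.5 with 0.251%. Their part in the results was not tested.

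Of 129 further genes on lists of RNA polymerase I, subunit assembly, snoRNP assembly and the RNA exosome, 41 of 127 measured were at least 2-fold higher in Reactivated than in EDG9.5 trophoblast and 2 lower, 20 of 128 were higher and 2 lower in the epiblast, and 3 of 128 were higher and 4 lower in the endoderm. Over all measured genes 13.1% were higher and 14.8% lower in the trophoblast, 7.27% and 16.5% in the epiblast, and 6.1% and 11.4% in the endoderm. The medians of the further genes were 0.66, 0.32 and −0.10, beside −0.09, −0.23 and −0.18 over all genes. At the upper end in the trophoblast stood Ruvbl2, a helicase of snoRNP assembly, at 502 CPM in Reactivated against 95.4 CPM in EDG9.5, Exosc2 of the exosome, at 133 CPM in Reactivated against 24.7 CPM in EDG9.5, and Ddx21, a nucleolar RNA helicase, at 331 CPM in Reactivated against 80.3 CPM in EDG9.5. At the lower end in the endoderm stood Mdn1, the remodelling ATPase of the large subunit, at 37.4 CPM in Reactivated against 155 CPM in EDG9.5. The 76 ribosomal protein genes behaved unlike the 36 in the trophoblast. Their median log2 ratio of Reactivated over EDG9.5 was 0.09 there, with 1 gene higher and 1 lower, 0.25 in the epiblast and −0.29 in the endoderm. Their sum in the trophoblast was 90061, 123780, 130230 and 120650 CPM in EDG7.5, EDG9.5, Reactivated, then E5.5. In the epiblast it was 86992, 101530, 118770 and 120710 CPM, with Reactivated and E5.5 above both EDG libraries, as for the 36. The endoderm sums were 92829, 124170, 100020 and 77553 CPM.

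The MYC family was described from a list of 11 genes. Only Myc, Mycn and Mycl on it are MYC genes, known regulators of ribosome production. The others are Max, Mlx, Mnt, Mga, Mxd1, Mxd3, Mxd4 and Mxi1, some of which compete with MYC. Counts over the list therefore do not describe MYC itself. Reactivated over EDG9.5, 2 of 11 were at least 2-fold higher and 2 lower in the epiblast, none of 11 higher and 3 lower in the endoderm, and 1 of 9 higher and 3 lower in the trophoblast, against the shares of all genes just given. Those lower were Mga and Mxd1 in the epiblast, Myc, Mga and Mxi1 in the endoderm, and Mga, Mnt and Mxi1 in the trophoblast. Myc stood at 61.5, 63.3, 160.5 and 109 CPM in EDG7.5, EDG9.5, Reactivated, then E5.5 trophoblast, and at 47.9, 57.1, 125 and 70.1 CPM in the epiblast. In the endoderm it stood at 125, 119 and 0.629 CPM in EDG7.5, EDG9.5 and Reactivated, the last on 2 UMIs with an interval of 0.0762 to 2.27 CPM, and at 8.75 CPM in E5.5. The named endoderm of Reactivated and E5.5 therefore had Myc levels far under those of the EDG libraries. Myc stood at 12.8 CPM in the left-out endoderm cluster of Reactivated. In EDG9.5 it stood at 44.0 CPM in the endoderm cluster led by Cubn and at 145 and 115 CPM in the others. Mycn, its paralogue, stood at 161, 163, 192 and 156 CPM in EDG7.5, EDG9.5, Reactivated, then E5.5 trophoblast, 345.5, 322, 229.5 and 119.6 CPM in the epiblast, and 102, 89.6, 57.5 and 115 CPM in the endoderm. In the epiblast Mycn was thus lower in Reactivated than in EDG9.5 where Myc was higher. Mga, which competes for the MYC partner MAX, stood at 117, 137, 26.9 and 74.0 CPM in the trophoblast, 503.5, 673, 149.9 and 160.5 CPM in the epiblast, and 239, 311, 60.7 and 78.4 CPM in the endoderm, so it was lower in Reactivated and E5.5 than in both EDG libraries throughout.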

How the data were processed

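Single-cell RNA was counted in 4 libraries of mouse embryos, 1 for each stage label. The deposited tables hold raw UMI counts per gene and cell. The submitters' processing notes name UMI-tools 1.0.1, STAR 2.7.1a, Subread, featureCounts 1.6.4 and mm10. The strand setting and gene annotation were not given in the sources used here.

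From these counts, cells with at least 1000 UMIs, 500 genes and under 25% mitochondrially encoded UMIs were kept, and doublets marked by Scrublet were removed (EDG7.5 had 12, EDG9.5 had 7, Reactivated had 2, E5.5 had 278). Each library was clustered on its own without the 36 genes (scanpy 1.11.5; 2000 variable genes, 30 components, 15 neighbours, Leiden resolution 1). A cluster took the lineage whose marker list led by at least 0.5 log2 with at least 3 markers at 20 CPM. UMIs were summed by lineage and library. Depth was 9270833 to 87507141 UMIs per library. Ratios carry exact conditional binomial intervals at 95% and levels exact Poisson intervals, from scipy 1.17.1. A gene was compared where 2 sums together held at least 10 UMIs. TMM factors came from edgeR 4.0.16 and size factors from DESeq2 1.42.0, as alternatives without a test. The calculation was tested on simulated Poisson counts, which hold no spread between cells, embryos or libraries and so check the arithmetic only. Values in every library are given, in at least 1 lineage, for the 2 genes with the most UMIs in each role and those with the highest and lowest ratio in each comparison, and some others were named after their values were seen. The 36 genes and all lists were chosen with earlier results of these data known.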

Additional observations from a re-analysis of the deposited data

Results flagged for a closer look

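The clusters left out of the lineage sums are given here with the summed level of the 36 genes, beside that of the lineage whose markers they showed most. They enter the lineages only in the alternative that keeps them. In EDG7.5 the clusters 3 and 6, led by Msx1 and H19, had summed levels of 7305.6 and 6770.8 CPM, beside 4711 CPM in the named trophoblast. In EDG9.5 the clusters 2 and 6, which also had Msx1 and H19 among their 10 leading genes, had 7379.8 and 7464 CPM, beside 5461.5 CPM. In these EDG7.5 clusters the trophoblast list stood 2.907 and 2.546 log2 above the endoderm list. In these EDG9.5 clusters it stood 3.013 and 3.085 log2 above the epiblast list. Msx1 is on the uterine epithelium list and is also known from trophoblast, and which cells these are was not tested further. In EDG9.5 the cluster 9, of 50 cells with 0.523% mitochondrially encoded UMIs and no lineage list in the lead by enough, had 13533 CPM. In Reactivated the cluster 2, led by Col3a1, Col1a2 and Dcn of the stroma list and also by Lama1, Lamb1 and Pth1r, which led the largest endoderm cluster of EDG7.5, had 13648 CPM, beside 12238 CPM in the named endoderm. Cluster 5 of Reactivated, led by Crip1 and AA467197 with Msx1, had 15996 CPM, beside 13692 CPM in the named trophoblast, whose clusters 6 and 7 had 16310 and 7283 CPM. In E5.5 the cluster 5, led by Prl3d1 and other prolactin family genes with Cdh5 and Pecam1 of the endothelium list, had 18369 CPM, beside 19812 CPM.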

How the results depend on the processing

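In 3 lineages and 3 comparisons, 17 alternatives were run. Of these, 16 were planned and 1 (left-out clusters kept) was chosen after seeing the data. Each median of the 36 genes was set against an interval around the median of the main processing. That interval reflects the spread of log2 ratios over the 36 genes, which are not replicates, and not counting error. It serves only as a yardstick for these shifts. Of the medians, 147 stayed inside it and 6 fell outside. The 6 were 0.20 for EDG9.5 over EDG7.5 trophoblast with cells under 10% mitochondrial UMIs, −0.18 for the epiblast with thinned cells and −0.13 for the endoderm with 50 CPM added. For Reactivated over EDG9.5 they were 0.33 in the endoderm with TMM and 0.95 in the trophoblast with 50 CPM added, and for E5.5 over Reactivated trophoblast 0.29 with DESeq2 size factors. Counts past 2-fold that moved by over 1.5 times, or to or from 0, were the following, while the trophoblast count of 26 higher in Reactivated over EDG9.5 ranged from 18 with 50 CPM added to 29 with 1 CPM added. For Reactivated over EDG9.5 the epiblast had 16 higher with TMM or DESeq2 scaling, 5 with 50 CPM added and 1 lower with thinned cells. The endoderm had 0 lower with TMM or 50 CPM added and 1 with DESeq2, and the trophoblast 0 lower at Leiden resolutions of 0.5 and 2. For E5.5 over Reactivated the trophoblast had 13 higher with thinned cells, 6 with the mean of single cells or 1 CPM added and 0 with 50 CPM added, and 1 lower with DESeq2. The epiblast had 1 higher with DESeq2 and 0 with 50 CPM added, and the endoderm 2 with thinned cells and 1 with 1 CPM added. For EDG9.5 over EDG7.5 trophoblast 1 was lower with thinned cells. The causes were not tested. Of the genes past 2-fold between Reactivated and EDG9.5, 18 of 27 in the trophoblast, 4 of 9 in the epiblast and 3 of 8 in the endoderm stayed past it in the same direction under every alternative. The alternative minimum of 500 UMIs left the same cells. No paired analysis was possible because each stage has 1 library. Depth limits the low genes most, such as Polr1e with 13 UMIs in EDG9.5 trophoblast.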
